A study of Mus musculus with 13 samples.

Results

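The 53 protein-coding genes of the semaphorin, plexin, neuropilin, Eph receptor and ephrin families were examined in the open chromatin of cultured mouse oligodendrocyte progenitor cells (OPCs). They were taken by name from the 21951 protein-coding genes of the GENCODE M21 annotation: every class 3 to 7 semaphorin (Sema), plexin (Plxn), neuropilin (Nrp), Eph receptor (Epha, Ephb) and ephrin (Efna, Efnb). There were 20 semaphorins, 9 plexins, 2 neuropilins, 14 Eph receptors and 8 ephrins. The rule uses gene names and no measured value.

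Semaphorins are secreted or membrane-bound guidance cues, and plexins are their signalling receptors. The secreted class 3 semaphorins mostly need a neuropilin as the binding subunit beside the plexin. Ephrins are cell-surface ligands, anchored by a lipid (A class) or by a transmembrane segment (B class), and bind Eph receptor tyrosine kinases on neighbouring cells, so that both cells can signal. These families steer axons and migrating cells, and several of their members act on the dispersal and differentiation of OPCs.

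OPCs, the dividing precursors of oligodendrocytes, had been dissected from pups of AMGFAP-Cre;K27M litters at postnatal days 5 to 7, pooled by region and genotype, depleted of endothelial cells and microglia, and captured on plates coated with an antibody against PDGFRα. All cultures were kept in proliferation medium with PDGF, CNTF, neurotrophin-3 and forskolin, and none was differentiated. The K27M groups expressed histone H3.3 K27M from a conditional allele of the endogenous gene after Cre recombination. The study's methods name the driver hGFAP-Cre, which is active in neural stem and progenitor cells from before birth, and littermates without the mutation served as controls. Each library is 1 culture from pooled tissue, so spread between libraries is spread between cultures and not between single animals. ATAC-seq libraries were made from 6 brainstem cultures (3 control, 3 K27M) and 7 telencephalon cultures (3 control, 4 K27M), where telencephalon stands for the pooled dorsal telencephalon (cortex, corpus callosum and hippocampus). Culture numbers 51, 59 and 61 recur across groups, and number 41 held K27M libraries only. The comparisons ask whether the chromatin of OPCs at these genes differs with region of origin and with the mutation.

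ATAC-seq reads out open chromatin as sites where the Tn5 transposase inserts. Each library was represented by its own list of 16879 to 52466 called peaks, without read counts, which leaves sequencing depth unknown. The strength of a peak was the fold enrichment deposited for it, a ratio to the local background in the same library without unit, and its percentile was its rank by fold within its own list from 0 (weakest) to 100 (strongest). A gene had a promoter peak when a peak touched the interval from 2 kb upstream to 1 kb downstream of any of its transcription starts, and where several did, the strongest was used, so that genes with more annotated starts have more chances of a strong one. Where a peak is missing, the chromatin was not necessarily closed, since a shallow library may miss it, and an open promoter is not a measure of expression. In a bulk library, openness in fewer cells and less openness per cell cannot be told apart. The OPC label was checked on promoters: 8 or 9 of 9 OPC marker promoters had a peak in every library, against 0 to 3 of 5 for mature oligodendrocytes, 0 to 3 of 5 for microglia, 0 to 2 of 5 for endothelial cells, 2 to 5 of 5 for astrocytes and 3 to 5 of 5 for neurons. Mog, Mag, Csf1r, Cx3cr1, Cdh5 and Tek had no promoter peak in any library, like 30.6% of all protein-coding genes. The other 3 markers of each of these lists had one in some libraries. A library had a promoter peak for 44.4% to 64.0% of all protein-coding genes. The astrocyte and neuron counts reached 5 of 5, so the check does not exclude those cells.

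Guidance gene promoters were open in most libraries. Of the 53 genes, 30 (56.6%) had a promoter peak in all 13 libraries, 22 had one in some and only Epha8 had none. Over all protein-coding genes the same shares were 42% in all libraries and 30.6% in none. With peaks of p at most 1e-10 alone, 1 member (1.89%) and 3.46% of all genes had a promoter peak in every library. A single member is too few to set an order between these shares. No promoter peak in any library was found for 35.8% of members and 52.8% of all genes. The 30 genes were Sema3a, Sema3c, Sema3d, Sema3e, Sema4b, Sema4c, Sema4d, Sema5a, Sema5b, Sema6a, Sema6c, Sema6d and Sema7a among the semaphorins, Plxna2, Plxna3, Plxnb1, Plxnb2, Plxnb3, Plxnc1 and Nrp1 among their receptors, Epha4, Epha5, Epha6, Epha7, Ephb1, Ephb3 and Ephb6 among the Eph receptors, and Efna1, Efnb1 and Efnb2 among the ephrins. Their peaks were weaker than those of other constantly open promoters: the median over genes of the mean percentile was 65.7 for the 30 genes and 75.7 for all 9211 genes with a promoter peak in every library, with median folds of 3.28 and 3.56. No test was made of this difference, because the members of a family are not replicates of a condition.

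**Figure D1:**
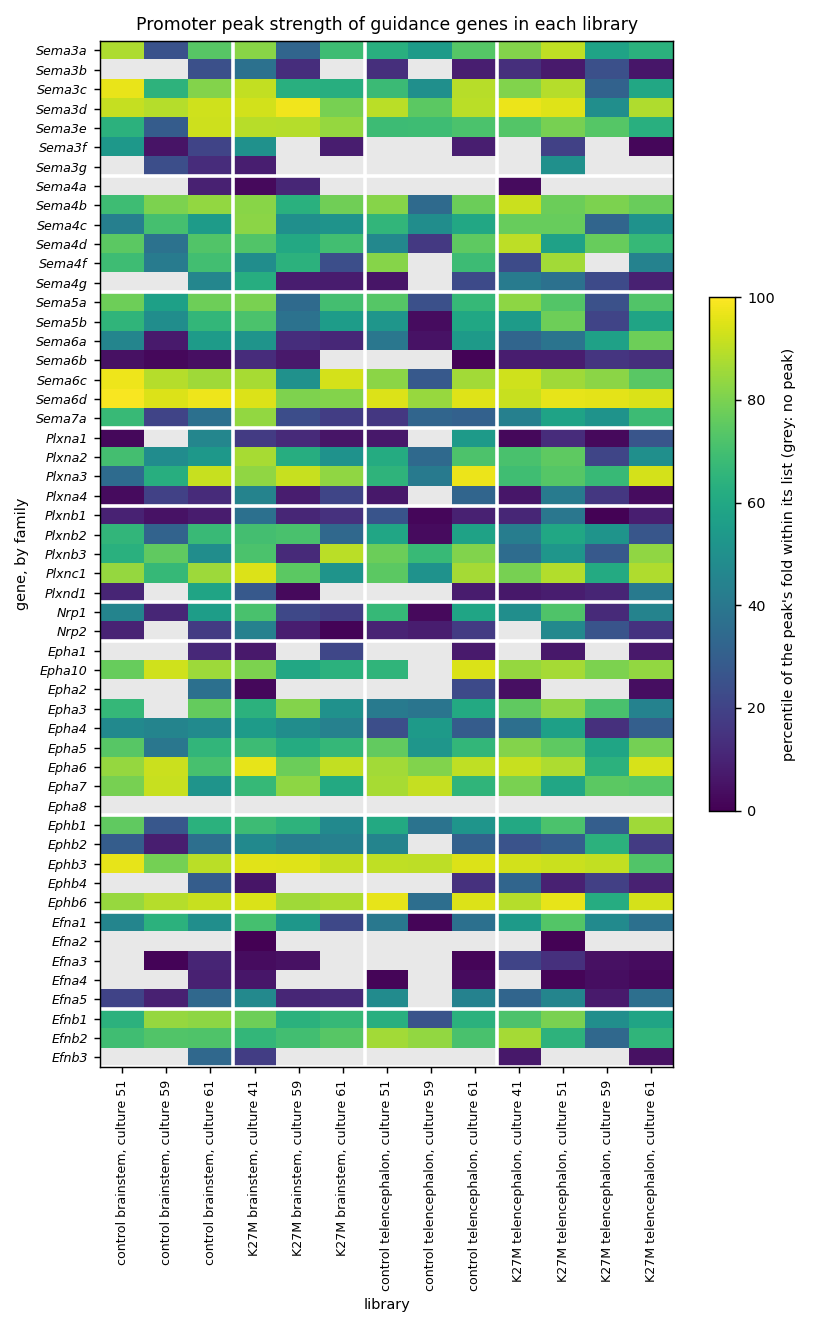
Percentile of each gene's promoter peak by fold within its own library's list (colour, 0 to 100; grey where no peak was called), with 53 genes in rows by family and 13 libraries in columns by group. Sema6d, Ephb3, Sema3d, Epha6 and Ephb6 had the highest mean percentiles, though Sema3d fell to 49.4 and Ephb6 to 36.3 in their lowest library. Plxnb1 was low throughout, Epha8 was grey throughout, and the grey cells gathered in the shorter lists, above all control telencephalon culture 59.

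The 22 partly found genes tracked the length of the list. K27M brainstem culture 41, with 48487 peaks, had a promoter peak for 22 of the 22, control brainstem culture 61, with 52466 peaks, for 21, and control telencephalon culture 59, with 16879 peaks, for 2 (Epha3 and Nrp2). Over all 53 genes the number found was 39, 41 and 51 in control brainstem, 41, 44 and 52 in K27M brainstem, 32, 41 and 48 in control telencephalon, and 44, 46, 49 and 49 in K27M telencephalon. Group means were 43.7 ± 6.43 (SD, n = 3), 45.7 ± 5.69 (n = 3), 40.3 ± 8.02 (n = 3) and 47.0 ± 2.45 (n = 4), and the 4 groups overlapped. When each list was reduced to its 16879 most significant peaks, the groups held 28 to 33, 33 to 35, 31 to 33 and 30 to 34 of the 53 genes in the same order. The part of depth in the missing peaks was not tested further.

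**Figure D2:**
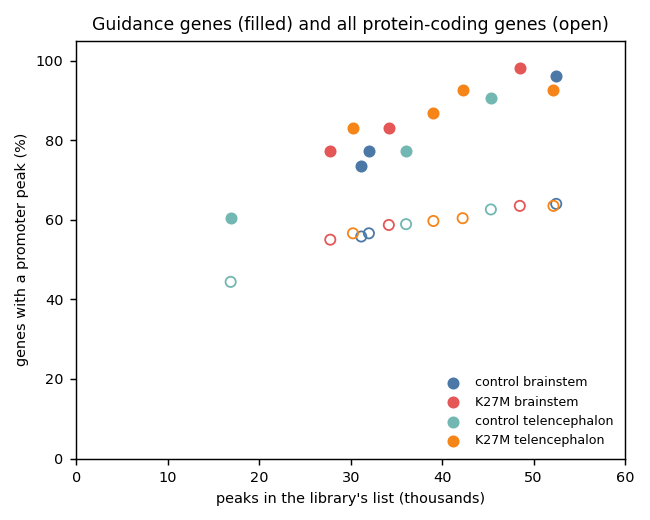
Share of genes with a promoter peak (vertical axis, %) against the number of peaks in the library's list (horizontal axis, in units of 1000), for the 53 guidance genes (filled) and all 21951 protein-coding genes (open), coloured by group. Both shares rose with list length, from 60.4% and 44.4% in control telencephalon culture 59 to 96.2% and 64.0% in control brainstem culture 61.

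Steady detection ran from the class 5 to 7 semaphorins down to the A-class ephrins. A promoter peak in every library was found for 4 of 7 class 3 semaphorins, 3 of 6 class 4 and 6 of 7 class 5 to 7 semaphorins, 2 of 4 A-class plexins, 4 of 5 B- to D-class plexins, 1 of 2 neuropilins, 4 of 9 EphA and 3 of 5 EphB receptors, 1 of 5 A-class ephrins and 2 of 3 B-class ephrins. Among the genes found in all libraries, the median of the mean percentile ran from 84.6 in EphB receptors and 72.1 in class 3 semaphorins to 54.9 in B- to D-class plexins, with the lone members Efna1 and Nrp1 lower, at 45.8 and 40.7. These counts describe small families and were not tested. Among the A-class ephrins, Efna2 was found in 2 libraries, Efna4 in 7, Efna3 in 9 and Efna5 in 12, and the mean percentiles of the first 3 were 0.478, 3.79 and 6.99.

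The remaining partly found genes were Efnb3, Sema4a and Sema3g (4 libraries each), Epha2 (5), Epha1 (6), Ephb4 (7), Sema3f (8), Sema3b and Plxnd1 (9), Sema6b and Sema4g (10), Sema4f, Plxna1 and Nrp2 (11), and Epha3, Epha10, Ephb2 and Plxna4 (12). Epha10, a receptor without kinase activity, stood apart among them with a mean percentile of 79.5 in its 12 libraries. Promoter peaks of 11 members also touched a promoter interval of another annotated gene, among them Efna4 with Adam15, Sema3g with Nisch and Sema5a with Snhg18, and a peak of such a pair cannot be assigned to one gene.

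RefSeq promoter sequences (250 bases before to 50 after a start, build GRCm38.p6, the assembly of mm10) were matched for 47 of the 53 members. Those of 3 members are shown to set a strong promoter, Ephb3, beside the weakest of those found in all libraries, Plxnb1, and the one found in none, Epha8. They lie at chr16:21204545-21204844 (plus strand), chr9:109095186-109095485 (plus strand) and chr4:136956767-136957066 (minus strand), are written 5′ to 3′, and have every CpG in capitals.
Ephb3: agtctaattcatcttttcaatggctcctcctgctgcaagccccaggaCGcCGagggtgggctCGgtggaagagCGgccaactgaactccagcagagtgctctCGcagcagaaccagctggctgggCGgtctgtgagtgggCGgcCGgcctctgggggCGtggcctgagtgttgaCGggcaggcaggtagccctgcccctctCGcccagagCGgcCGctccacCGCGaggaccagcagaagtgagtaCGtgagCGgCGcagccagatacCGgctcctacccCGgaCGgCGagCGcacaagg
Plxnb1: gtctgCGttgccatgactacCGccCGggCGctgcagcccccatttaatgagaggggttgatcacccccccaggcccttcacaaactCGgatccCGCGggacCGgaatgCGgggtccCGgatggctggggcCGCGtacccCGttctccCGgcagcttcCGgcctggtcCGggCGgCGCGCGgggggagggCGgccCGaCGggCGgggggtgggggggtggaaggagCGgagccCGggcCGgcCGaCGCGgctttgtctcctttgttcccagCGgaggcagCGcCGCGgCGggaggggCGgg
Epha8: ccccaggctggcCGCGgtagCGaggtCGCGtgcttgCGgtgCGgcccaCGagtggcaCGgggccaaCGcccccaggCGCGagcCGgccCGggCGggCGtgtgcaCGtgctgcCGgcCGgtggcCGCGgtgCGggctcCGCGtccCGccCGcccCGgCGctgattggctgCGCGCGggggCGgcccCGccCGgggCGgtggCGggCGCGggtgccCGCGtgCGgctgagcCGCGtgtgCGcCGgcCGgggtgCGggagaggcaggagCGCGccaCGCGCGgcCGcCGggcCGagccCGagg
These windows held 23, 36 and 56 CpG dinucleotides, with 66.7%, 74.7% and 84.3% G and C, and a peak lay over them in 13, 11 and 0 libraries. In the other 2 libraries the Plxnb1 peak touched the promoter interval elsewhere. Epha8, a receptor of the A class, had the most G and C of the 47 members, and 0.176% of the 16517 protein-coding genes with such a sequence had as much or more. The median G and C content was 64.7% both for the 29 matched members found in all libraries and for the 17 found in some. Over all protein-coding genes it was 61.8% in all libraries, 58.0% in some and 45.7% in none.

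The class 3 semaphorins are secreted ligands. Sema3d (chr5:12383385-12588948) had the strongest promoter of the class, at the 86.7 ± 12.9 percentile (SD, n = 13). Its folds were 4.02, 3.85 and 4.63 in control brainstem, 4.57, 4.70 and 3.41 in K27M brainstem, 3.58, 3.15 and 4.31 in control telencephalon, and 4.28, 4.82, 2.98 and 3.75 in K27M telencephalon, each group in order of culture number. All 4 groups overlapped, and the lowest value was K27M telencephalon culture 59. Sema3a (chr5:13125414-13602565), a repulsive cue for axons, had the weakest promoter among the 4 class 3 members found throughout, at a mean percentile of 65.9. Its folds were 3.86, 2.75 and 3.71, then 3.89, 2.83 and 3.16, then 2.90, 2.89 and 3.61, then 3.46, 4.37, 3.10 and 3.04 in the same group order. In both brainstem groups culture 59 was the lowest, and the groups overlapped.

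Sema3c (chr5:17574281-17730268) is named because its genotype difference was among the 3 of largest size. Its promoter folds were 4.44, 3.22 and 3.99 in control brainstem, 4.39, 3.27 and 3.05 in K27M brainstem, 2.99, 2.84 and 4.29 in control telencephalon, and 3.44, 4.28, 2.80 and 2.96 in K27M telencephalon. The ranges of control and K27M libraries overlapped. Sema3f (chr9:107681500-107710475), which was found in 8 libraries, was called in 5 of the 6 brainstem and 3 of the 7 telencephalon libraries. The folds were 3.03, 2.46 and 2.62 in control brainstem, 2.85 and 2.37 in K27M brainstem (cultures 41 and 61), 2.41 in control telencephalon (culture 61), and 2.40 and 2.09 in K27M telencephalon (cultures 51 and 61).

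Class 4 to 7 semaphorins are mostly anchored in the membrane. Sema4b (chr7:80186841-80226527) led class 4 at a mean percentile of 75.2, with folds of 3.32, 3.57 and 4.09 in control brainstem, 3.89, 3.28 and 3.38 in K27M brainstem, 3.31, 2.71 and 3.74 in control telencephalon, and 3.89, 3.71, 3.56 and 3.35 in K27M telencephalon. Sema4c (chr1:36548639-36558349) was the weakest of class 4 found throughout, at 58.7, with 2.89, 3.34 and 3.18, then 3.91, 3.04 and 2.88, then 2.94, 2.84 and 3.23, then 3.32, 3.68, 2.80 and 2.81. For both genes the values of all groups overlapped.

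Sema6d (chr2:124089969-124667770), a transmembrane ligand of A-class plexins, had the strongest promoter of all 53 genes, at the 92.4 ± 6.05 percentile (SD, n = 13). The strongest of its merged promoter peaks lay at chr2:124609508-124611341, over an internal start (mean fold 4.23 ± 0.61), and the peak at the first start, chr2:124089681-124092047, had a mean fold of 3.75 ± 0.48. The folds used here, the highest at any start in each library, were 4.86, 4.17 and 5.12 in control brainstem (mean 4.72 ± 0.49), 4.74, 3.69 and 3.46 in K27M brainstem (3.96 ± 0.68), 3.89, 3.34 and 4.74 in control telencephalon (3.99 ± 0.71), and 3.88, 4.93, 4.29 and 4.14 in K27M telencephalon (4.31 ± 0.45). The K27M mean was lower than the control mean in brainstem and higher in telencephalon, with overlapping libraries in both. Sema6a (chr18:47235598-47368870), a close relative, was at the other end of classes 5 to 7, at a mean percentile of 37.6. Its folds were 2.93, 2.51 and 3.19, then 2.88, 2.61 and 2.42, then 2.58, 2.32 and 3.11, then 2.62, 2.66, 3.09 and 3.38.

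Plexins transmit the semaphorin signal into the cell. Plxna3 (chrX:74329066-74344689) had the strongest A-class promoter found throughout, at 73.5, and varied most between libraries: 2.81, 3.19 and 4.53 in control brainstem, 3.93, 4.13 and 3.52 in K27M brainstem, 2.93, 2.77 and 5.03 in control telencephalon, and 3.15, 3.56, 3.27 and 4.05 in K27M telencephalon. Culture 61 was the highest in both control groups and in K27M telencephalon, but the lowest in K27M brainstem. Plxna2 (chr1:194618218-194816869), at a mean percentile of 58.2, had 3.35, 2.99 and 3.15, then 4.13, 3.25 and 2.87, then 2.87, 2.71 and 3.55, then 3.19, 3.62, 2.68 and 2.79. Plxna1 and Plxna4 were weaker, at mean percentiles of 17.0 and 17.8.

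Plxnc1 (chr10:94790866-94944835), a receptor for Sema7a, led the other plexins at 75.9, with folds of 3.73, 3.26 and 4.17 in control brainstem, 4.71, 3.53 and 2.88 in K27M brainstem, 3.13, 2.85 and 4.14 in control telencephalon, and 3.40, 4.26, 3.15 and 3.74 in K27M telencephalon. Plxnb1 (chr9:109095389-109119917), the Sema4d receptor, had the weakest promoter found in all libraries, at 13.9 ± 12.5 (SD, n = 13), and the steadiest folds: 2.51, 2.44 and 2.43, then 2.59, 2.57 and 2.47, then 2.46, 2.20 and 2.42, then 2.43, 2.69, 2.16 and 2.31. Its percentile lay between 0.762 and 39.7 while a peak was called every time. Plxnb2 (chr15:89155549-89180788) had the largest regional difference of the 30 genes. Its folds were 3.25, 2.80 and 3.51 in control brainstem, 3.40, 3.45 and 2.68 in K27M brainstem, 2.83, 2.26 and 3.19 in control telencephalon, and 2.72, 3.11, 3.01 and 2.53 in K27M telencephalon, and the regions overlapped.

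Neuropilins bind class 3 semaphorins and also VEGF. Nrp1 (chr8:128358604-128503363) was found throughout at a mean percentile of 40.7, with 2.92, 2.58 and 3.20 in control brainstem, 3.43, 2.71 and 2.51 in K27M brainstem, 2.96, 2.25 and 3.21 in control telencephalon, and 2.81, 3.51, 2.57 and 2.72 in K27M telencephalon. The group means lay between 2.81 and 2.90, closer together than the libraries within any group. Nrp2 was weaker, at 18.5 in 11 libraries.

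Eph receptors of the A class prefer A-class ephrins and those of the B class prefer B-class ephrins. Epha6 (chr16:59653483-60605531) led the A class at 85.1, with 3.73, 3.99 and 3.61 in control brainstem, 4.93, 3.59 and 3.80 in K27M brainstem, 3.45, 3.26 and 4.36 in control telencephalon, and 3.87, 4.20, 3.21 and 4.08 in K27M telencephalon. Epha4 (chr1:77367185-77515088), which also binds B-class ephrins, was the weakest of those found throughout, at 41.0. It had 2.95, 2.94 and 3.04, then 2.96, 3.03 and 2.78, then 2.44, 2.89 and 2.70, then 2.66, 3.06, 2.59 and 2.56, and the control telencephalon values lay below all 3 control brainstem values. The regional difference of Epha4 did not pass the test given further on (log2 difference 0.07 ± 0.07 SE, limma adjusted p = 0.978).

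Epha1 (chr6:42358487-42373268) was found in 3 of 6 brainstem and 3 of 7 telencephalon libraries, with folds of 2.51, 2.24, 2.55, 2.38, 2.26 and 2.28. Epha2 (chr4:141301240-141329384) was found in 2 of 6 and 3 of 7, with 2.84, 2.10, 2.62, 2.29 and 2.19. Both were found in control brainstem culture 61, K27M brainstem culture 41, control telencephalon culture 61 and K27M telencephalon culture 61. Epha1 was also found, at its highest fold of 2.55, in K27M brainstem culture 61, which has the second shortest list (27768 peaks).

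Ephb3 (chr16:21204755-21223305) had the second strongest promoter of the 53 genes, at 90.1 ± 6.75 (SD, n = 13). Its folds were 4.40, 3.54 and 4.42 in control brainstem, 4.84, 4.37 and 3.83 in K27M brainstem, 3.63, 3.50 and 4.70 in control telencephalon, and 3.96, 4.48, 3.95 and 3.24 in K27M telencephalon. Ephb1 (chr9:101922128-102354693), at 57.4, had 3.47, 2.77 and 3.40, then 3.35, 3.30 and 2.82, then 2.85, 2.75 and 3.07, then 2.97, 3.49, 2.77 and 3.64. Ephb4 (chr5:137350109-137378669), best known from veins, was found in 2 of 6 brainstem and 5 of 7 telencephalon libraries, and in 5 of 7 K27M and 2 of 6 control libraries. Its folds were 2.74 in control brainstem (culture 61), 2.22 in K27M brainstem (culture 41), 2.51 in control telencephalon (culture 61), and 2.62, 2.31, 2.66 and 2.32 in K27M telencephalon, the group in which all libraries had it.

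Among the ephrins, Efna1 (chr3:89271733-89281142) was the A-class member found throughout, at 45.8, with 2.93, 3.21 and 3.07 in control brainstem, 3.41, 3.09 and 2.55 in K27M brainstem, 2.58, 2.16 and 2.80 in control telencephalon, and 2.88, 3.54, 2.96 and 2.63 in K27M telencephalon. Every control telencephalon value lay below every control brainstem value, while the K27M groups overlapped. Efna4 (chr3:89333390-89338028) was found in 2 of 6 brainstem and 5 of 7 telencephalon libraries, with folds of 2.47 and 2.22 in brainstem and 2.06, 2.23, 2.07, 2.38 and 2.11 in telencephalon.

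Efnb2 (chr8:8617434-8661242), a ligand of Ephb4 and other B-class receptors, was at 70.5, with 3.32, 3.38 and 3.66 in control brainstem, 3.27, 3.41 and 3.27 in K27M brainstem, 3.45, 3.32 and 3.53 in control telencephalon, and 3.64, 3.26, 2.82 and 3.07 in K27M telencephalon. The lowest 2 values were K27M telencephalon cultures 59 and 61. Efnb1 (chrX:99136130-99148991), at 65.6, had 3.22, 3.68 and 4.07, then 3.69, 3.29 and 3.13, then 2.90, 2.63 and 3.32, then 3.20, 3.79, 2.98 and 2.93. Brainstem values were mostly the higher ones, with overlap.

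No guidance gene promoter passed the test for a difference in strength by region or by genotype. After loess normalisation of log2 fold between libraries, a linear model (limma, with culture number as a block) was fitted to the 9211 promoters found in all libraries, and p-values were adjusted over all of them. By region 0 of 30 members were called at an adjusted p of at most 0.05, against 0.0217% of all promoters (2 of 9211). By genotype 0 of 30 were called against 0% of all promoters, and for the interaction (whether the K27M difference itself depends on region) again 0 of 30 against 0%. At an unadjusted p under 0.05 the members also gave 0 of 30 in each of the 3 comparisons, against 5.35% of all promoters by region, 4.47% by genotype and 4.15% for the interaction.

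The differences were small and their intervals narrow. By region (brainstem minus telencephalon) the 30 log2 differences of fold ran from −0.09 to 0.13 with a median of 0.012, 17 of them positive. By genotype (K27M minus control) they ran from −0.15 to 0.09 with a median of −0.011, 12 of them positive. The median absolute difference was 0.0422 for members and 0.0477 for all promoters by region, and 0.0308 and 0.050 by genotype. The 95% intervals of the members reached at most 1.21-fold higher and 1.18-fold lower in brainstem, and at most 1.18-fold higher and 1.25-fold lower in K27M. These are differences by region averaged over both genotypes, and by genotype averaged over both regions. Intervals within a single region or genotype are not given. Larger averaged differences in this ratio lay outside the intervals of these 30 genes, each taken singly, and the fold of a broad peak is an average over its length. Members without a promoter peak in some library have no such interval. For the interaction the intervals were wider and reached 1.56-fold.

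The largest regional differences were those of Plxnb2 (log2 difference 0.13 ± 0.07 SE, adjusted p = 0.910), Efnb1 (0.11 ± 0.06, adjusted p = 0.910) and Efna1 (0.10 ± 0.07, adjusted p = 0.933), each higher in brainstem and none past the limma test. By genotype they were Efnb2 (−0.15 ± 0.08), Sema3c (−0.13 ± 0.08) and Sema6d (−0.12 ± 0.07), each lower in K27M with an adjusted p of 0.999. For Sema6d the interaction was −0.25 ± 0.13 with an unadjusted p of 0.0577 and an adjusted p of 1 in the same limma fit.

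**Figure D3:**
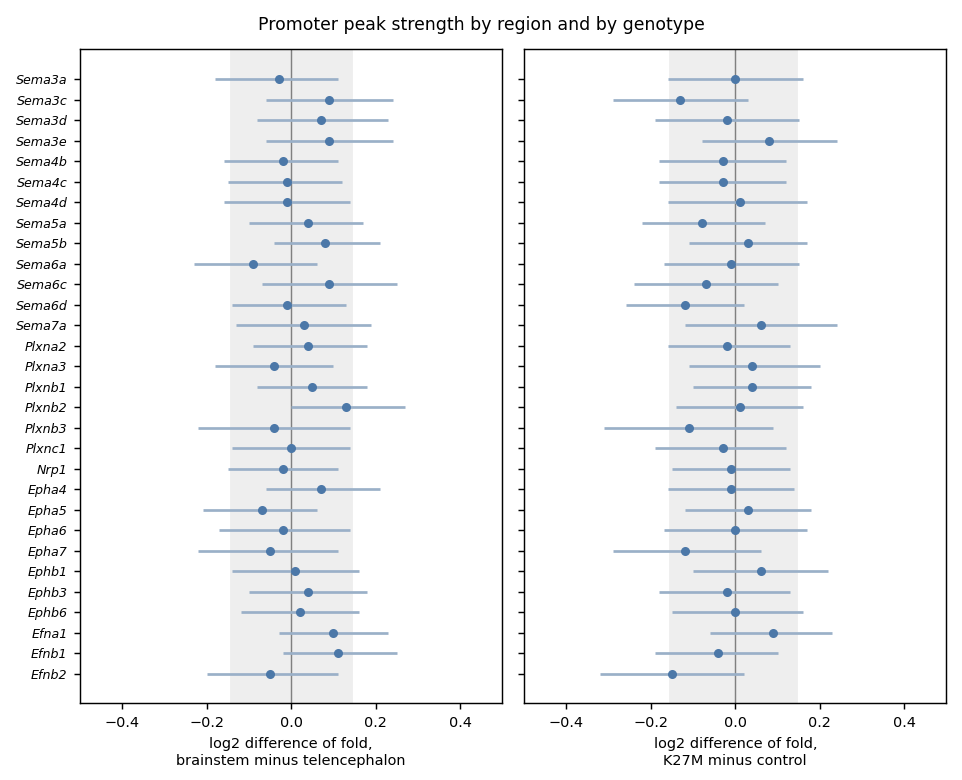
Log2 difference of promoter fold (horizontal axes) for the 30 guidance genes with a promoter peak in all 13 libraries, brainstem minus telencephalon on the left and K27M minus control on the right. Points are limma estimates, lines are 95% intervals, and the grey band spans the central 95% of all 9211 promoters (−0.14 to 0.14 by region, −0.16 to 0.15 by genotype). Every interval crossed 0, that of Plxnb2 by region only just, and the points lay within the band.

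Detection gave no call either. Of the 962 protein-coding promoters found in 5 to 8 libraries, 5 were members (Efna4, Epha1, Epha2, Ephb4 and Sema3f), and 0 of 5 passed a two-sided Fisher's exact test by region or by genotype. The share called over all 962 was 0% in both comparisons. The smallest Fisher adjusted p over all 962 was 0.561 by region and 0.28 by genotype. With so few libraries, a lone gene split fully between the sides could not be called among so many. The absence of calls therefore says little about detection. At an unadjusted p under 0.05 the share was 1.46% by region and 1.25% by genotype, and 0 of 5 members in each. The smallest unadjusted exact p among the members was 0.266, for Sema3f by region, with an adjusted p of 1.

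Much of the open chromatin at these genes lay outside the promoters. After overlapping peaks (1 bp or more) of the 13 lists had been joined, 397 merged peaks touched the 53 genes, 85 at their promoters and 312 elsewhere in the gene bodies. Of the 312, 259 lay in introns alone and 53 touched an exon. In the libraries themselves there were 45 to 173 such gene-body peaks. They made up 2.91 ± 0.248 of every 1000 peaks in control brainstem (SD, n = 3), 2.80 ± 0.465 in K27M brainstem (n = 3), 2.80 ± 0.266 in control telencephalon (n = 3) and 3.16 ± 0.277 in K27M telencephalon (n = 4), with overlapping ranges. Per Mb of gene body there were 44.5 merged peaks in guidance genes and 40.8 in all protein-coding genes. The first value leaves out member promoters only, the second those of all protein-coding genes.

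A larger share of the gene-body peaks of guidance genes recurred in every library, which was not tested. Of these peaks, 10.3% (32 of 312) were present in every list and 40.4% in just 1 list. Of the 42395 gene-body peaks of all protein-coding genes, 5.15% and 51.1% were. The 312 leave out member promoters only, while the 42395 leave out those of all protein-coding genes. Outside every coding promoter lay 31 of the 32. The member peaks concentrated in long genes. The 22 members over 100 kb (a limit chosen after the lengths were seen) held 283 of the 312 and 27 of the 32, while 13 of the 31 shorter members held none of these merged peaks. Sema6d had the most, 35, followed by Ephb1 with 25, Plxna4 and Sema5a with 22 each and Ephb2 with 21. Epha6, the longest at 952 kb, had 9.

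In 25 of the 42 members that had both kinds of peak, the strongest gene-body peak exceeded the promoter peak in most of the libraries with both. This compares the strongest of several peaks with 1 promoter. The count is not set against all protein-coding genes, so it cannot be read as particular to these families. Nrp2 had a mean fold of 4.24 ± 0.79 in the body (SD, n = 13) and 2.51 at the promoter, and the body peak was the higher in 11 of 11 libraries with both. The same held in 13 of 13 libraries for Sema5a (4.83 and 3.26), Sema6a (4.39 and 2.79), Sema3a (4.28 and 3.35) and Plxna2 (3.91 and 3.16), and in 12 of 12 for Plxna4 (4.32 and 2.52) and Efna5 (4.29 and 2.66). Sema4a, whose promoter was found in 4 libraries, had a peak over an exon at chr3:88436240-88437562 in all 13, with a mean fold of 3.64 ± 0.61. The opposite order was seen in several genes, most of them short: Sema4b, Sema6c, Plxnb2, Plxnb3, Efnb2 and the 154 kb Plxnc1 had the stronger peak at the promoter in every library with both. This comparison used each library's own peaks before joining. After joining, every merged peak of Plxnb2 and Plxnb3 touched a promoter interval.

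**Figure D4:**
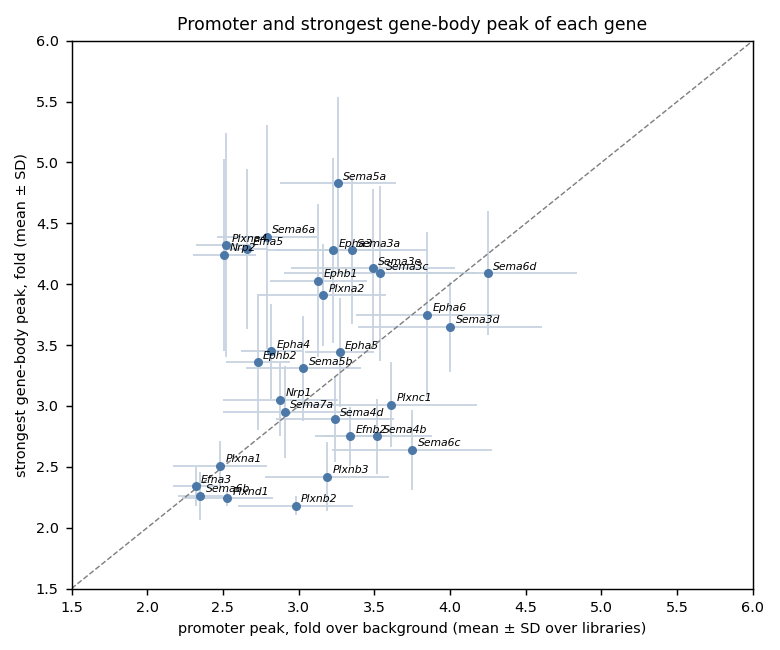
Mean fold of the promoter peak (horizontal axis) against mean fold of the strongest gene-body peak (vertical axis) for each guidance gene with a promoter peak and a gene-body peak in at least 7 libraries each, with SD over libraries as lines and equality as a dashed line. Long genes such as Sema5a, Nrp2, Plxna4, Sema6a and Efna5 lay well above the line, and Plxnb2, Plxnb3 and Sema6c lay below it.

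The 5 strongest gene-body peaks found in all libraries lay in introns of Sema5a (2 peaks), Sema6a, Sema3a and Efna5, at mean percentiles of 91.1 to 95.0. The 200 bases at the centre of those outside Sema6a, and of the Epha6 and Sema6d peaks described further on, are given on the plus strand of GRCm38 to show the intronic sequence under peaks called in every culture. The centre is the median of the midpoints of the 13 libraries' own peaks, since broad peaks carry no summit. Capitals mark matches on either strand to a SOX core (ACAAAG or ACAATG), an E-box (CAGCTG) or an AP-1 site (TGANTCA), none of which contains another.
Sema5a, chr15:32611117-32611316: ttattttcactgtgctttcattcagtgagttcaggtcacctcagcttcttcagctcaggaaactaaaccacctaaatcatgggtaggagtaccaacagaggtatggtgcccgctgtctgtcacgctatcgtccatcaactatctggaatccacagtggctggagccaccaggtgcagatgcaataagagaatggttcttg
Sema5a, chr15:32433706-32433905: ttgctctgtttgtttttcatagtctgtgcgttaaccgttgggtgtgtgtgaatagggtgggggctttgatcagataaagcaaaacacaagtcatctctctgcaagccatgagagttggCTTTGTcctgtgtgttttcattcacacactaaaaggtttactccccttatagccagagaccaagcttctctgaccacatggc
Sema3a, chr5:13263264-13263463: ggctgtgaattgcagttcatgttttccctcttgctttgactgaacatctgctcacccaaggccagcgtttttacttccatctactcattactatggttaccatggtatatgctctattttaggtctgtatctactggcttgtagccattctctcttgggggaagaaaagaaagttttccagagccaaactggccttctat
Efna5, chr17:62862451-62862650: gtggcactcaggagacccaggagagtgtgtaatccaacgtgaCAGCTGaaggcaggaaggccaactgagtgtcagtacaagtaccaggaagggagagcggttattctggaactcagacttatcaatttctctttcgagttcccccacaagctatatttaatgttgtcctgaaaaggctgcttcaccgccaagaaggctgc
Epha6, chr16:59802189-59802388: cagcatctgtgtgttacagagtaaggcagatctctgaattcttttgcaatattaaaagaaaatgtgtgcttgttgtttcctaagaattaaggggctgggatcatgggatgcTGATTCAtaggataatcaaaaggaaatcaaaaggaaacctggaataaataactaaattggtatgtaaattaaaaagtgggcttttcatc
Sema6d, chr2:124429891-124430090: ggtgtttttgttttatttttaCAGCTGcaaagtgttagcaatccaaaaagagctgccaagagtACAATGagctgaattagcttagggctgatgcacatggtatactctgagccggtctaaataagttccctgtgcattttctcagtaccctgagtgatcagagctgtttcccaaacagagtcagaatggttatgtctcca
They are poor in CpG, with 0 to 4 in 200 bases each. The 3 promoters above held 23 to 56 in 300 bases, but the 47 matched member promoters ran from 2 to 56 with a median of 21. That of Sema3a held 2, and those of Sema6d held 10 on average. Over the 31 member gene-body peaks found in all libraries and outside every coding promoter, 32.3% held a SOX core, 29.0% the E-box and 6.45% the AP-1 site. Over the 2182 such peaks of all protein-coding genes the shares were 39.5%, 24.3% and 8.25%. These are matches of letters in a window and not shown binding.

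The Sema5a peak at chr15:32610626-32612104, 9690 bases from the nearest annotated start, had the highest mean percentile, 95.0. Its folds were 4.40, 4.70 and 5.74 in control brainstem, 5.40, 4.84 and 3.93 in K27M brainstem, 3.72, 3.41 and 5.05 in control telencephalon, and 4.62, 5.90, 4.09 and 3.48 in K27M telencephalon. The Sema6a peak at chr18:47255549-47257041 had 3.98, 3.62 and 5.56, then 6.12, 3.97 and 3.93, then 3.90, 3.38 and 4.84, then 4.35, 5.93, 3.79 and 3.77. In both, the library with the highest value in each group was also the one with the longest list of that group.

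The Efna5 peak at chr17:62861723-62863386 had folds of 4.49, 4.06 and 4.57 in control brainstem, 5.05, 4.63 and 3.12 in K27M brainstem, 3.67, 3.24 and 4.77 in control telencephalon, and 4.15, 5.44, 3.59 and 4.59 in K27M telencephalon, with all groups overlapping. Its own promoter, in contrast, was at a mean percentile of 29.0.

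No gene-body or promoter peak of the guidance genes was called in the same limma model over the 13075 merged peaks found in all libraries. By region 0 of 65 member peaks were called against 0.0306% of all (4 peaks), by genotype 0 of 65 against 0%, and for the interaction 0 of 65 against 0%. At an unadjusted p under 0.05 there were 2 of 65 by region, 3 by genotype and 3 for the interaction, against 6.83%, 4.88% and 4.47% of all merged peaks. The 95% intervals of the 65 peaks reached at most 1.22-fold higher and 1.25-fold lower in brainstem, and 1.32-fold higher and 1.27-fold lower in K27M. They too are for differences averaged over genotypes or over regions.

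The smallest unadjusted p-values fell on intronic semaphorin peaks. The Sema5a peak at chr15:32433410-32434753, 167594 bases from the nearest start, had folds of 3.24, 3.81 and 4.64 in control brainstem, 4.66, 4.38 and 4.60 in K27M brainstem, 3.68, 3.30 and 5.13 in control telencephalon, and 4.74, 5.60, 4.91 and 5.25 in K27M telencephalon. K27M values were mostly the higher ones, but control culture 61 of either region reached the K27M range. The log2 difference by genotype was 0.26 ± 0.07 SE (unadjusted p = 0.00124, limma adjusted p = 0.793), and by region it was −0.19 ± 0.07 (unadjusted p = 0.00733, adjusted p = 0.599).

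The Sema3a peak at chr5:13262246-13263825 had 3.92, 3.64 and 4.53 in control brainstem, 5.14, 4.49 and 4.63 in K27M brainstem, 3.60, 3.18 and 4.62 in control telencephalon, and 3.84, 5.32, 4.26 and 4.11 in K27M telencephalon. Its log2 difference by genotype was 0.21 ± 0.07 (adjusted p = 0.798 in limma). The Sema6d peak at chr2:124427812-124430651 had 3.69, 3.57 and 3.77, then 3.82, 3.49 and 3.68, then 2.95, 2.65 and 3.65, then 3.14, 4.58, 3.76 and 3.48. Its difference by genotype was 0.16 ± 0.07 (limma adjusted p = 0.995), and the brainstem groups were level, with means of 3.68 and 3.66.

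The 3 interaction differences with an unadjusted p under 0.05, named after their values were seen, were those of 2 further Sema3a intron peaks and of the Sema6d peak over its internal start. At chr5:13374076-13375670 in Sema3a the K27M mean was above the control mean in brainstem (3.87 and 3.37) and below it in telencephalon (3.49 and 3.67), a log2 interaction of 0.35 ± 0.15. At chr5:13469621-13470856 the order was the reverse (3.22 and 3.93, then 3.82 and 3.41), −0.35 ± 0.13. The Sema6d interaction was −0.28 ± 0.14, and the limma adjusted p was 0.999 for each of the 3.

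By region, the Epha6 peak at chr16:59801184-59802981 had 3.16, 3.54 and 4.78 in control brainstem, 3.09, 3.22 and 3.48 in K27M brainstem, 3.43, 2.79 and 4.54 in control telencephalon, and 3.58, 4.95, 3.42 and 4.40 in K27M telencephalon. The log2 difference was −0.17 ± 0.07 (limma adjusted p = 0.642). A peak at chr1:36546452-36548774, past the 3′ end of Sema4c and over the promoter of its neighbour Ankrd39, had 3.64, 3.26 and 3.78, then 3.21, 3.51 and 3.01, then 2.82, 2.53 and 3.26, then 2.96, 3.09, 3.44 and 2.72. It was higher in brainstem by 0.14 ± 0.07 (limma adjusted p = 0.733). In 2 of the libraries the peak itself reached into Sema4c, and it is counted with that gene only through the merging.

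**Figure D5:**
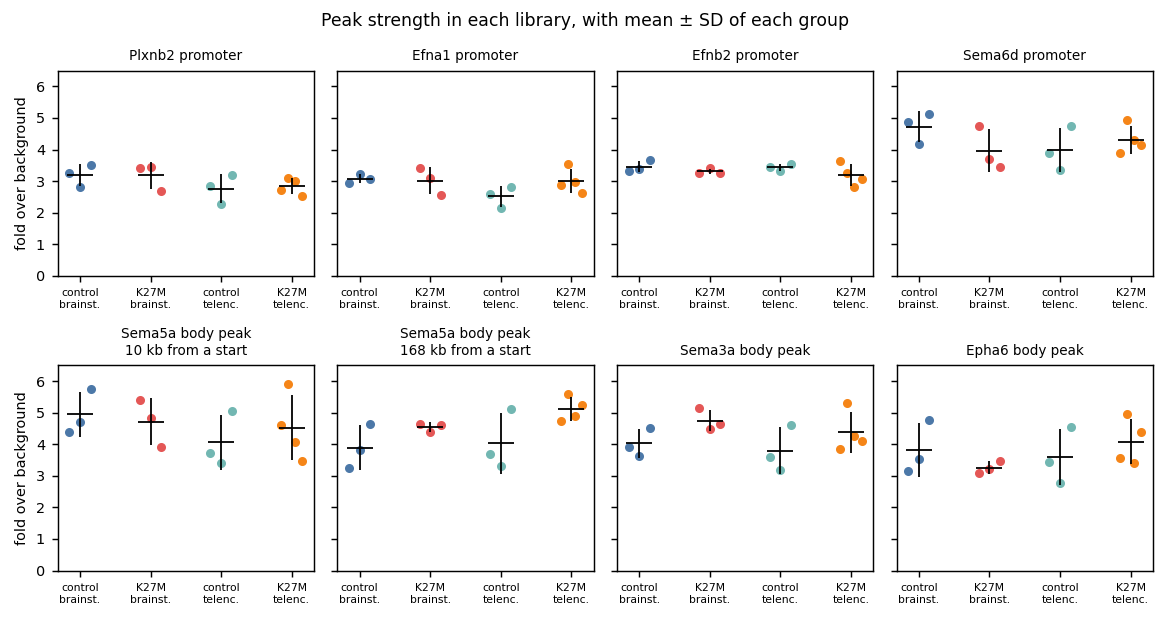
Fold over background (vertical axes, from 0) in every library for 4 promoters (upper row) and 4 gene-body peaks (lower row), with points coloured by group and the group mean ± SD in black. Control and K27M libraries of a region overlapped in every panel. K27M means were the higher in both regions for the Sema5a peak 168 kb from a start (4.55 and 3.90 in brainstem, 5.13 and 4.03 in telencephalon) and for the Sema3a peak (4.75 and 4.03, 4.38 and 3.80), without passing the test.

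Other genes of these pathways were described by counts. Of 22 netrins, slits, repulsive guidance molecules, draxin and their receptors, 15 (68.2%) had a promoter peak in all libraries, against 42% of all protein-coding genes, and Robo4, the endothelial Robo receptor, and Slit1 had none in any. Of 26 signalling partners of these receptors, mostly intracellular, such as collapsin response mediators and MICAL enzymes, 17 (65.4%) were found in all libraries and none in no library. Neither list had a member called by region or by genotype in either direction (0 of 15 and 0 of 17 tested in limma). At an unadjusted p under 0.05 there were 3 of 15 and 0 of 17 by region, against 5.35% of all promoters, and 1 of 15 and 0 of 17 by genotype, against 4.47%. These 4, which were picked out after their values were seen, were the ligands Ntn1 (log2 difference by region 0.20 ± 0.07), Draxin (0.14 ± 0.07), Ntn4 (−0.14 ± 0.06) and, by genotype, Slit2 (−0.18 ± 0.08), with limma adjusted p-values from 0.851 to 0.999.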

How the data were processed

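ATAC-seq peak lists of 13 OPC cultures were analysed. As the study's methods and the submitters' processing notes describe, the authors trimmed reads (Trim Galore 0.6.7, cutadapt 3.4), aligned them to mm10 (BWA 0.7.17-r1188), removed blacklisted regions and called broad peaks per library (MACS2 2.2.7.1). The study states a cutoff for its broad ChIP-seq peaks, none is stated for these ATAC-seq lists, and the lowest deposited −log10 q was 1.00. Each deposited list gives a score, a fold enrichment (a ratio to local background), a −log10 p and a −log10 q per peak. The score was not analysed. No read counts are in the lists, so depth is unknown and the authors' count-based test was replaced by limma.

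Starts and gene types came from GENCODE M21. Own peaks were joined at 1 bp overlap. limma 3.58.1 (R 4.3.3) was fitted to log2 fold after cyclic loess, with 4 groups and culture number as a block (6 residual degrees of freedom). Benjamini-Hochberg adjustment ran over all features, and calls needed an adjusted p of at most 0.05. Detection was compared by Fisher's exact test for genes found in 5 to 8 libraries. Scripts were tested on simulated data. Genes and lists were chosen with earlier results of these data known.

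Members given with values in every library were the strongest and weakest by percentile in each family among those found throughout, the 3 largest differences by region and by genotype, and those found in 5 to 8 libraries. For gene-body peaks they were the 5 highest by percentile and the 3 smallest p-values in each comparison. The block was kept because the study matched cultures. Deviations from group means correlated only weakly between same-numbered libraries, by −0.07 to 0.18 over promoters.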

Additional observations from a re-analysis of the deposited data

How the results depend on the processing

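No guidance gene promoter or merged peak was called by region, by genotype or for the interaction (count 0) without the replicate block, with normal scores of the percentile, median centring, quantile normalisation, a trended prior, presence in 10 libraries, peaks of p at most 1e-10, lists of equal length or each library left out. For promoters the same held with a 500 bp window, a 200 bp overlap and starts of protein-coding transcripts alone. Peaks of p at most 1e-10 left 1 member promoter and 1 member merged peak to test, so that count of 0 carries little weight. Lists of equal length left 20 member promoters and 41 member merged peaks. Detection by region and by genotype also gave 0 calls within culture number, with the 2 other peak lists, the other windows, overlaps and starts, and each library left out. These detection reruns likewise could not call a lone separated gene, so their 0 calls add little. Without the replicate block the Plxnb2 difference by region was 0.12, that of Efnb2 by genotype −0.12 and that of the intronic Sema5a peak by genotype 0.25, with limma adjusted p-values of 0.994, 0.997 and 0.914. The culture numbers did not pair all libraries, since some numbers were missing from some groups. Deviations from group means correlated by 0.06 on average over promoters between same-numbered libraries and by −0.02 between others. With so few libraries in a group, these values cannot show whether cultures were matched. Over all features, 2 promoters and 4 merged peaks were called by region, and these counts ran from 0 to 2 and from 0 to 8 over the alternatives and from 1 to 4 and from 0 to 6 with a library left out. For the 12 differences by region or genotype named by rule, leaving out 1 library kept the sign. By region, Plxnb2 ran from 0.08 to 0.17, Efnb1 from 0.08 to 0.16 and Efna1 from 0.05 (without control telencephalon culture 59) to 0.14, and by genotype Efnb2 ran from −0.23 to −0.10 and Sema3c from −0.19 to −0.06 (without control telencephalon culture 61). The Epha6 peak by region ran from −0.21 to −0.11, and the Sema5a peak by genotype from 0.22 to 0.29. The interaction differences, and those of Epha4 and of genes outside the families, were not recomputed one by one. With peaks of p at most 1e-10, 1 member (1.89%) was found in all libraries and 19 (35.8%) in none, against 3.46% and 52.8% of all genes. With lists of equal length 12 members (22.6%) were found in none, against 43.5% of all genes. With a 500 bp window or starts of protein-coding transcripts alone, 2 members (3.77%) were, against 33.6% and 32.2% of all genes. Of 430 values recomputed for 22 results, 425 were labelled the same, 0 reversed and 5 moved. A difference was labelled the same when it kept its sign and its adjusted p stayed above 0.05, a count when it changed little. Most counts were 0 and the adjusted p-values lay far above 0.05, so the tally says little about how steady the sizes were. Depth is unknown, so a missing weak promoter cannot be read as closed.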
